A study of Arabidopsis thaliana with 12 samples.

Results

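FATB and LpxA are 2 Arabidopsis enzymes that take an acyl chain from acyl carrier protein (ACP), the small protein that holds a growing fatty acid while it is made. They were picked by function among the 691 genes with a probe of their own on the array, and each has 1 such probe. The rule also asked for their difference between the treatments, so the values of that contrast were known when they were picked. Every level and change of FATB and LpxA below is therefore a description and supports nothing.

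Transcripts were measured in wild-type plants of ecotype Columbia 0 on 12 single-channel arrays. In the staurosporine group (6 arrays), plants were kept for 4 h with 2 µM staurosporine, a broad inhibitor of protein kinases, and then for 4 h with 25 mM ascorbate at pH 5.5. In the water group (6 arrays), water replaced staurosporine and the ascorbate step was the same. Both groups thus received ascorbate, and neither shows a response to ascorbate itself. The labels name no tissue and do not say whether arrays came from separate plants, so a p-value here measures array-to-array spread alone, and that spread can be technical.

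In plastids, fatty acids are built on ACP, and acyl-ACP thioesterases end the process by cutting the chain off. FATB prefers saturated chains and releases mainly palmitate, which leaves the plastid and feeds membrane lipids, waxes and cutin, while FATA enzymes prefer the unsaturated oleoyl-ACP. LpxA is named after the enzyme of Escherichia coli that moves a hydroxyacyl chain from ACP to UDP-N-acetylglucosamine, the first step of lipid A synthesis. Plants keep most genes of that pathway, and the Arabidopsis enzymes are found in mitochondria.

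The 2 genes differed in opposite directions. LpxA was higher on all 6 staurosporine arrays than on any water array. FATB was lower on average after staurosporine, but its groups overlapped, 1 staurosporine array was listed at 0, and its size depended on how low values were handled. Intensities are relative and have no absolute unit, so each probe is compared only with itself. In RNA of whole samples, fewer cells that express a gene and less transcript per cell cannot be told apart.

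LpxA (AT4G29540, probe 2903) had deposited intensities of 0.446, 0.524, 0.551, 0.679, 0.691 and 0.635 on staurosporine arrays 1 to 6. On water arrays 1 to 6 they were 0.136, 0.169, 0.300, 0.241, 0.319 and 0.332. The lowest staurosporine array, number 1, lay above the highest water array, number 6, so the groups did not overlap. Of all 3439 probes, 7.21% were likewise higher on every staurosporine array, and 6.78% after normalization. Within both groups numbers 1 and 2 were the lowest on the deposited values. LpxA was above 0 on every array, so no value was set to a floor.

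**Figure D1:**
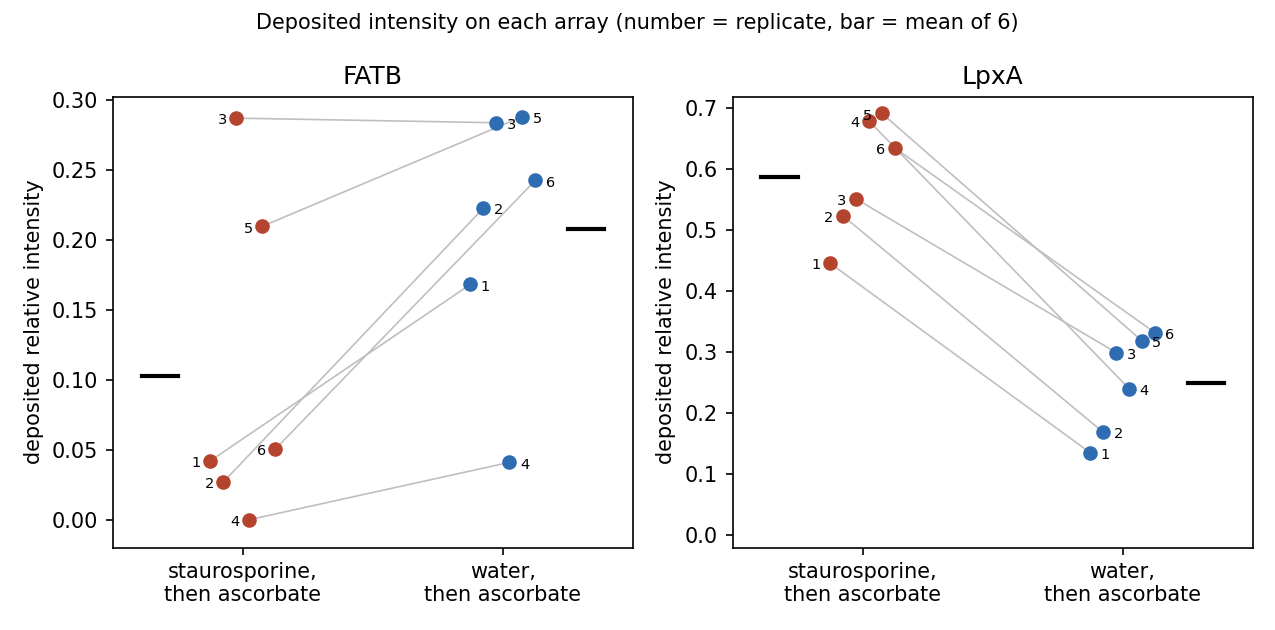
Deposited relative intensity of FATB (left) and LpxA (right) on each array, with staurosporine arrays in red at the left of each panel and water arrays in blue at the right; digits are replicate numbers, grey lines join arrays of the same number and black bars are means of 6 arrays. The 6 LpxA points after staurosporine lie between 0.446 and 0.691, all above the water points, whereas the FATB groups overlap and staurosporine array 4 is at 0.

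After quantile normalization between arrays, LpxA averaged 0.563 ± 0.116 after staurosporine and 0.282 ± 0.0185 after water (SD, n = 3 number pairs each). A number pair is the mean of arrays 1 and 2, 3 and 4, or 5 and 6 of a group. The median intensities of such arrays were closer to each other than to those of other arrays of the group. The fitted log2 change of LpxA was 0.98 ± 0.16 (SE, 12 arrays), or 1.97-fold. In the 6 pairs of same-numbered arrays the log2 difference ran from 0.66 at number 1 to 1.58 at number 4, with a median of 0.90, and all 6 pairs were higher after staurosporine. On the deposited values the order of pairs was different. There number 1 had the largest log2 difference, 1.72, and number 3 the smallest, 0.88. The median intensities of water arrays 1 and 2 were 0.252 and 0.259, the lowest of all 12 arrays, and normalization reduced the difference at numbers 1 and 2 most. Its sign was the same on both scales in every pair.

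FATB (AT1G08510, probe 1421) had deposited intensities of 0.0421, 0.0270, 0.287, 0, 0.210 and 0.0506 on staurosporine arrays 1 to 6. On water arrays 1 to 6 they were 0.168, 0.223, 0.284, 0.0410, 0.288 and 0.243. Arrays 3 and 5 of the staurosporine group lay within the range of water arrays 1, 2, 3, 5 and 6, and water array 4 lay among the low staurosporine arrays. On the deposited values number 4 was the lowest and numbers 3 and 5 were the highest in both groups. Over the 6 numbers, Pearson's r between the staurosporine and water values was 0.72 for FATB and 0.75 for LpxA on deposited values. On normalized log2 values it was 0.09 and 0.12. For LpxA the likeness by number thus did not carry over to the normalized scale. For FATB the 0.09 includes the floor put in place of 0 on staurosporine array 4, so it cannot show whether the likeness carried over. The 2 arrays of number pair 3 and 4 were thus far apart in both groups, with FATB at 0.287 and 0 after staurosporine and at 0.284 and 0.0410 after water.

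Normalized FATB averaged 0.0960 ± 0.0793 after staurosporine and 0.246 ± 0.0713 after water (SD, n = 3 number pairs each), with the value at 0 set to the floor described below. The fitted log2 change was -1.96 ± 0.70 (SE, 12 arrays), or 3.89-fold lower. This fold is taken from means of log2 values, in which low arrays weigh more than in the linear means above. The deposited intensities averaged 0.103 after staurosporine, the value at 0 included, and 0.208 after water (6 arrays each). In the pairs of same-numbered arrays the normalized log2 differences of FATB were -2.67, -3.36, 0.14, -0.29, -1.23 and -4.35 for numbers 1 to 6. The gene was lower after staurosporine in 5 of 6 pairs, and number 3 was near 0. The -0.29 at number 4 is set by the floor put in place of 0 and is no measurement; with 1 floor of 0.005 for all arrays it was -3.79, and with 0.04 -0.79. By number pair the normalized log2 difference was -3.02 for 1 and 2 and -2.79 for 5 and 6. For 3 and 4 it depended on the floor, at -0.07 with the floor of that array and -1.82 with 0.005. The size for 5 and 6 depended on normalization. On deposited values the log2 difference of FATB was -0.46 at number 5 and -2.26 at number 6. At numbers 1 and 2 the deposited differences were also smaller in size than the normalized ones, with the same sign. For LpxA the normalized differences by number pair were 0.70 for 1 and 2, 1.26 for 3 and 4, and 0.96 for 5 and 6. The SD of the 6 paired differences was 1.78 for FATB, floor included, and 0.33 for LpxA, on the log2 scale.

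**Figure D2:**
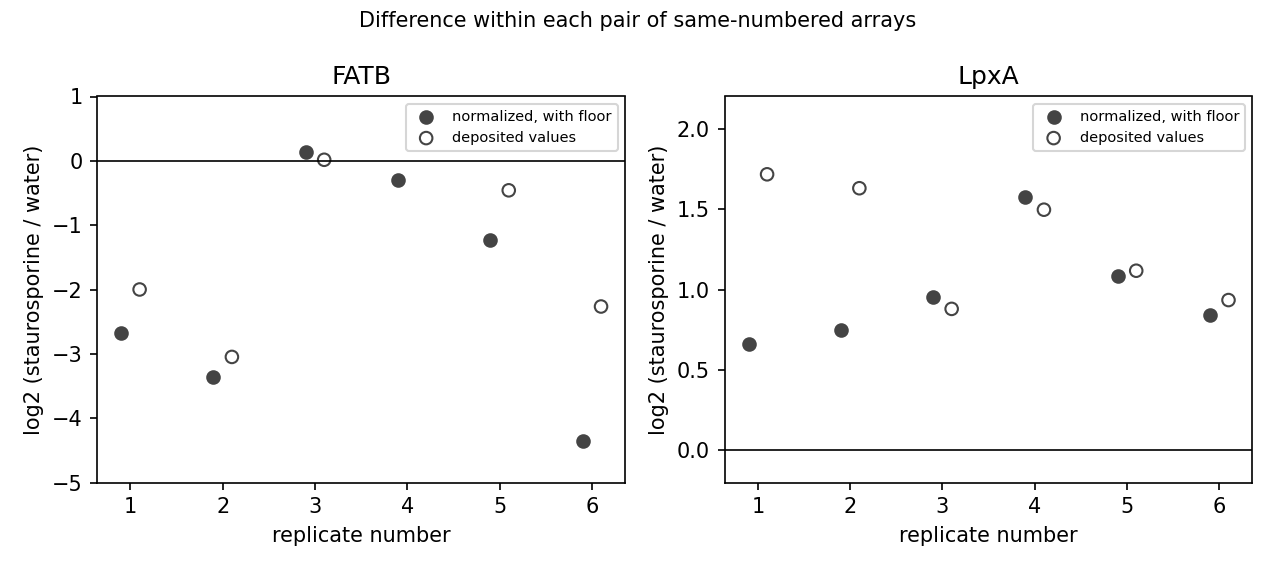
Log2 ratio of staurosporine over water within each pair of same-numbered arrays, for FATB (left) and LpxA (right), from normalized values with a floor (filled) and from deposited values (open). The FATB pairs spread from -4.35 to 0.14 and have no open point at number 4, where the deposited staurosporine value is 0; all LpxA pairs lie above 0.

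The value at 0 hardly moved the fitted FATB change under the floor that was used. A value of 0 was replaced by a floor, the 1st percentile of normalized intensities above 0 on that array, and the floors ran from 0.00189 on staurosporine array 6 to 0.0564 on staurosporine array 4. Array 4, where FATB was at 0, therefore gave FATB a value of 0.0564, above the measured 0.0458, 0.0339 and 0.0107 on staurosporine arrays 1, 2 and 6. Leaving that value out as missing gave a log2 change of -1.96 ± 0.75, close to the value with the floor.

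Under that floor, a measured array weighed more. On staurosporine array 6 the deposited FATB intensity of 0.0506 became 0.0107 after normalization, the lowest FATB value used in the fit. That array had the fewest probes at 0, 354 of 3439, against 522 on staurosporine array 4, which had the most. When values at 0 were treated as missing during normalization, FATB on array 6 was 0.0441, and its log2 change was -1.82 ± 0.74. Without staurosporine array 6 the log2 change of FATB was -1.48 ± 0.59.

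**Figure D3:**
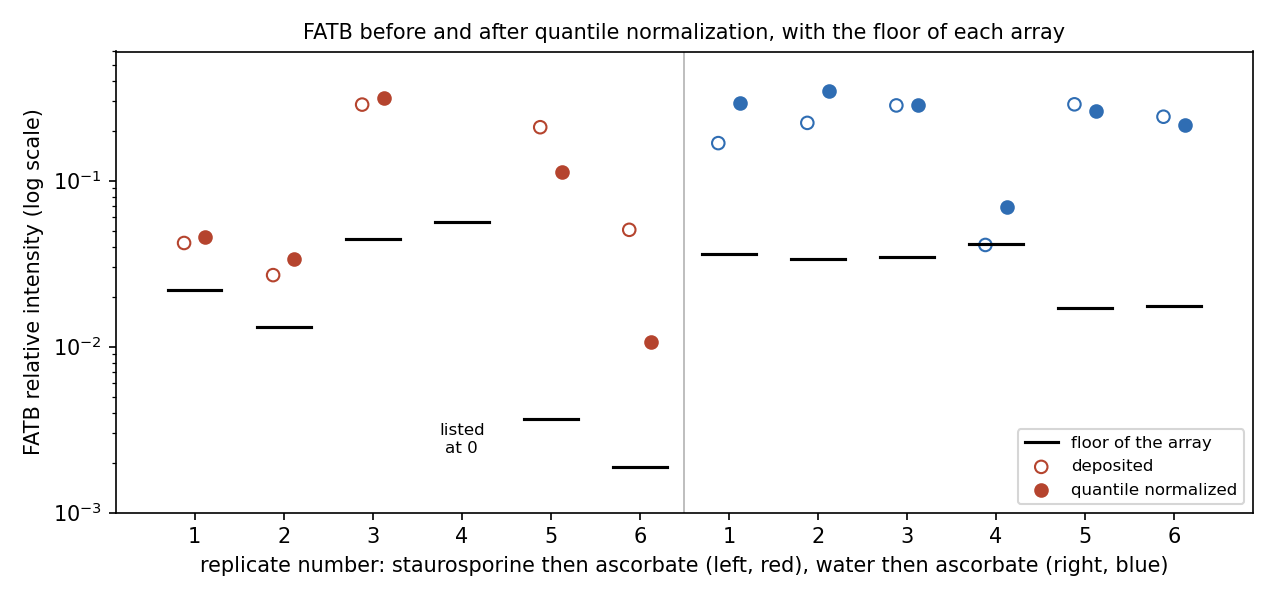
FATB intensity on a log axis for each array, staurosporine arrays 1 to 6 at the left in red and water arrays 1 to 6 at the right in blue; open circles are deposited values, filled circles normalized values and black dashes the floor of each array. On staurosporine array 6 the normalized value, 0.0107, lies below the deposited 0.0506, and the floor of staurosporine array 4, 0.0564, lies above 3 of the measured FATB values of its group.

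With 1 floor for all arrays the size of the FATB change followed the floor. The log2 change was -2.54 ± 0.92 with a floor of 0.005, -2.38 ± 0.83 with 0.01, -2.06 ± 0.70 with 0.02 and -1.69 ± 0.59 with 0.04. With the highest array floor used for all arrays it was -1.39 ± 0.52, and with an offset of 0.05 added to every value -1.38 ± 0.48. None of these floors moved LpxA, whose log2 change was 0.98 with each. The offset of 0.05 gave 0.87 for LpxA. Without further normalization the log2 change was -1.55 ± 0.75 for FATB and 1.30 ± 0.25 for LpxA. The median of all probes was -0.12 after quantile normalization and 0.19 without it. Probes at 0 on every array, such as that of CKS, also had 0.19 without it, a value set by floors alone. The median of -0.12 includes these probes too, at -1.12. These medians therefore cannot show a shift between the groups, and LpxA is not read relative to them.

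**Figure D4:**
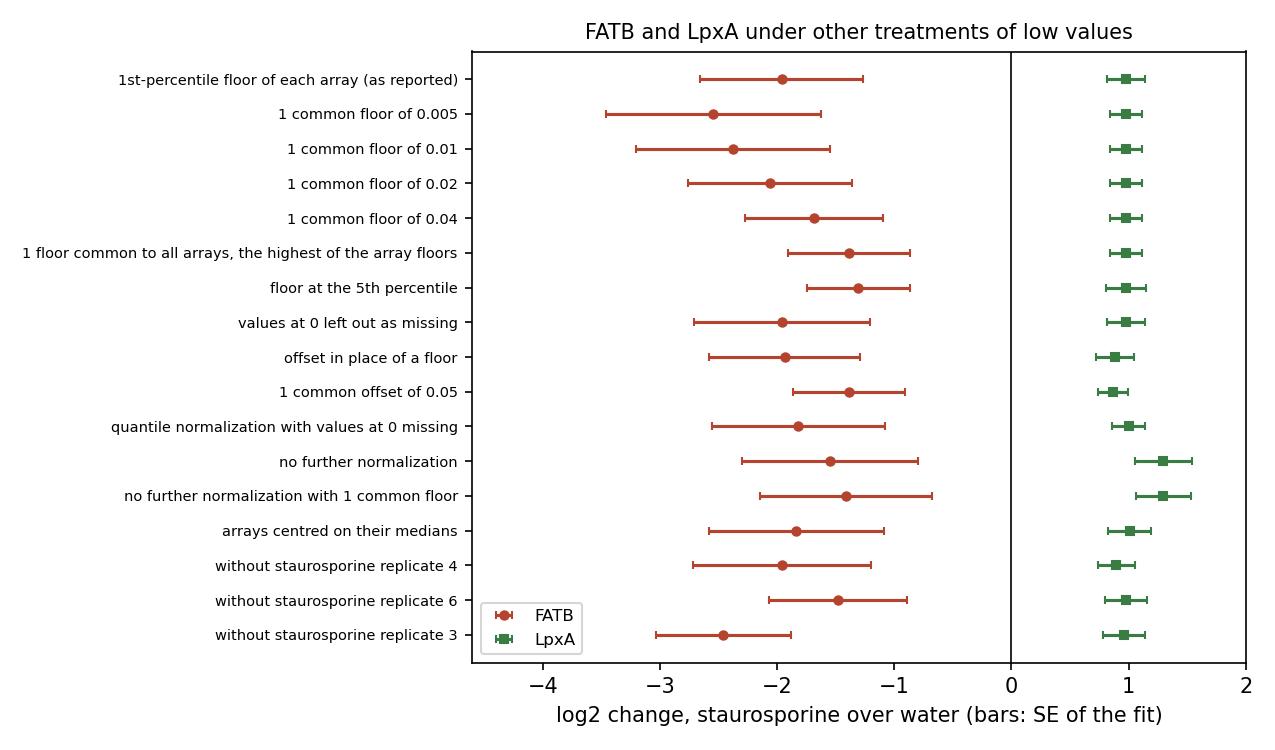
Fitted log2 change of FATB (red circles) and LpxA (green squares), staurosporine over water, under different treatments of low values and with single staurosporine arrays left out; bars are the SE of the fit. FATB ranges from -2.54 to -1.31 in these settings, and LpxA from 0.87 to 1.30.

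The fit over 12 arrays called 788 of 3439 probes (22.9%) at an adjusted p of 0.05, 381 higher (11.1%) and 407 lower (11.8%). LpxA was among the called probes, with a limma adjusted p of 0.00159, and FATB was not, with 0.0622. Both p-values were known when the genes were picked, and nothing is read from them. The split of calls was 343 higher and 223 lower without further normalization, and 240 higher and 458 lower with arrays centred on their medians. When the arrays of a number pair were averaged before the fit, 9 probes (0.262%) were called, without LpxA or FATB (limma adjusted p 0.127 for LpxA and 0.168 for FATB). FATB was called without staurosporine array 3, where it is high, with a log2 change of -2.46 (limma adjusted p 0.0128). It was also called without water array 4, where it is low, with -2.30 (0.0377). LpxA was called without any 1 array, with adjusted p between 0.00108 and 0.00464 in limma.

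FATB has a second probe that it shares with both FATA genes, probe 1541. It was listed at 0 on all 12 arrays and gives no second reading of FATB. Probe 3455, which carries both FATA genes and not FATB, averaged 0.434 ± 0.0285 after staurosporine and 0.631 ± 0.0113 after water (SD, n = 3 number pairs each). It had a log2 change of -0.55 ± 0.12 (limma adjusted p 0.00864) and was lower in 6 of 6 same-numbered pairs. The adjusted p was 0.191 without further normalization (log2 change -0.37) and 0.241 with number pairs averaged. The deposited values of probe 3455 overlapped between groups, at 0.344 to 0.590 after staurosporine and 0.439 to 0.740 after water.

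Of 102 genes on 12 lists of fatty acid, lipid A and other lipid metabolism, 6 had a probe of their own and 5 of these, FATB and LpxA included, were above 0 on any array. Of these 5, LpxA was called as higher and none as lower, against 11.1% of all probes called as higher and 11.8% as lower; LpxA was picked with its value known, so nothing is read from this count. Besides LpxA, the 10 other genes of the lipid A list have no probe listed here. CKS, which activates KDO, the sugar joined to the lipid A precursor in E. coli, was at 0 on all 12 arrays. AT2G04540, the mitochondrial ketoacyl-ACP synthase, averaged 0.460 ± 0.0706 after staurosporine and 0.307 ± 0.0322 after water (SD, n = 3 number pairs each). It had a log2 change of 0.57 ± 0.19 (limma adjusted p 0.0552). Blocking on the replicate number gave an adjusted p of 0.0335 in limma, omitting normalization 0.0282 and averaging number pairs 0.279. It was below 0.05 without staurosporine array 3 (0.0388) or water array 4 (0.0440), the arrays whose removal also let FATB pass, and above it without any other array. It was higher in 6 of 6 pairs.

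In the plastid, the ketoacyl-ACP reductase AT1G24360, which works upstream of FATB, averaged 1.30 ± 0.175 after staurosporine and 1.40 ± 0.130 after water (SD, n = 3 number pairs each). Its log2 change was -0.10 ± 0.13 (limma adjusted p 0.582), and it was lower in 5 of 6 pairs. With arrays centred on their medians the change was -0.45 (limma adjusted p 0.132). The acyl-ACP desaturase gene AT5G16230, a user of the same substrate pool, had a log2 change of 0.74 ± 0.32 and was higher in 5 of 6 pairs (limma adjusted p 0.119). Without further normalization its log2 change was 1.44, and with arrays centred on their medians 1.15, with adjusted p of 0.126 and 0.118 in limma. Its deposited intensities ran from 0.163 to 0.245 after staurosporine. After water they ran from 0.0104 to 0.209, with a median of 0.110. Of 5 leaf markers, LHB1B2 and PSAN had a probe of their own, and the other 3 had no probe listed. Both were called as lower, against 11.8% of all probes, and 2 probes are too few to set against this share. The log2 change was -0.65 ± 0.17 for LHB1B2 (limma adjusted p 0.0177) and -1.73 ± 0.13 for PSAN (9.13e-06). With number pairs averaged neither passed (limma adjusted p 0.280 and 0.0591). Deposited LHB1B2 ran from 1.15 to 1.39 after staurosporine and from 1.53 to 2.60 after water. For PSAN these ranges were 0.462 to 0.609 and 1.43 to 2.16. The part of these levels in the FATB and LpxA values was not tested. No root or seed marker had a probe of its own.

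**Figure D5:**
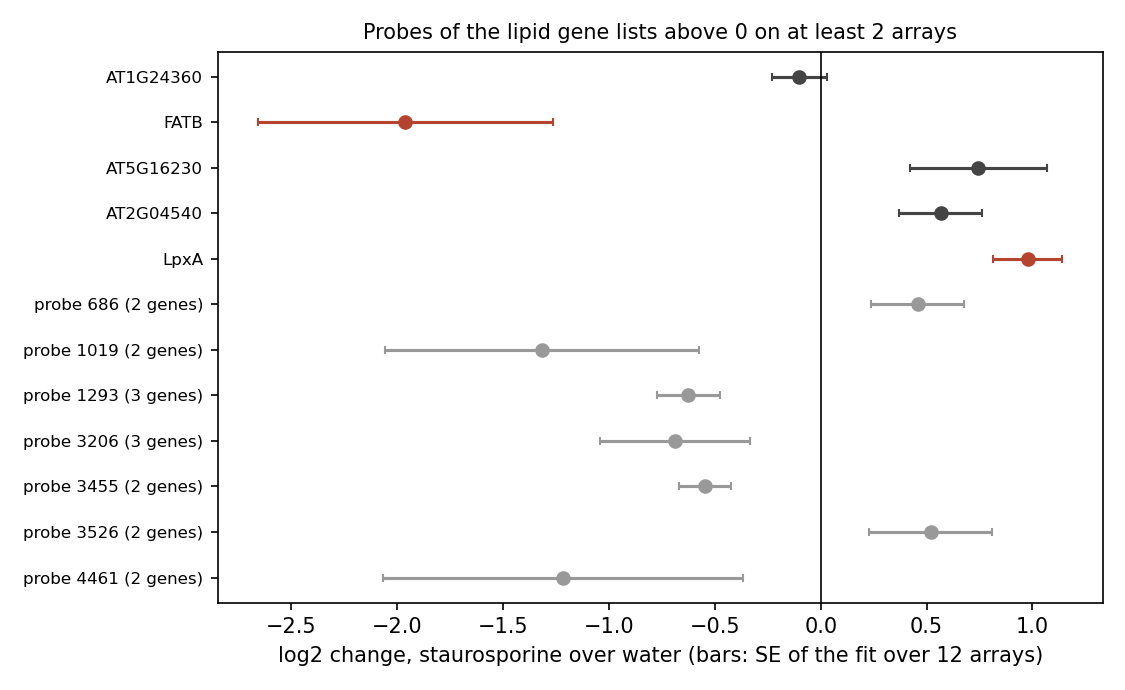
Log2 change, staurosporine over water, with its SE over 12 arrays, for the genes of the lipid lists with a probe of their own (FATB and LpxA in red, others in dark grey) and for probes shared by 2 or 3 genes (light grey), if above 0 on at least 2 arrays. FATB, at -1.96, is the lowest and LpxA, at 0.98, the highest of these 12 probes after quantile normalization. AT5G16230 is above LpxA without further normalization (1.44 against 1.30) and with centring (1.15 against 1.01). Probe 4461, at -1.22, was at 0 on 3 staurosporine arrays and 1 water array, where floors took the place of 0.

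Pearson's r of the normalized log2 values of FATB and LpxA was -0.47 over 12 arrays, which includes their opposite differences between the groups, and 0.32 for deviations from the group means. Within the groups it was 0.27 over the 6 staurosporine arrays and 0.51 over the 6 water arrays. Among 526 single-gene probes above 0 on all arrays, those most like FATB over the 12 arrays were PSBY, a small photosystem II protein (r 0.94), AT3G02030 (0.87), AT5G64150 (0.81), APS4, an ATP sulfurylase (0.79), and AT3G25410 (0.79). For deviations from the group means their r with FATB was 0.90, 0.77, 0.71, 0.65 and 0.60. On deposited values their r with FATB was 0.74, 0.73, 0.64, 0.61 and 0.55. Without staurosporine array 6 it was 0.88, 0.76, 0.65, 0.65 and 0.72 on normalized log2 values. Those most like LpxA were LAS, a regulator of side shoot formation (r 0.93), AT1G34270 (0.92), AT1G15410 (0.92), AT1G21730 (0.90) and AT2G32470 (0.90). For deviations from the group means these were 0.69, 0.36, 0.43, 0.46 and 0.49, so a large part of their likeness to LpxA is the difference between the groups. All these values share the 12 arrays and their normalization and are descriptions.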

How the data were processed

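The deposited table holds 1 linear relative intensity per probe and array, between 0 and 100. The sources used here do not state how the authors scanned, corrected or scaled these intensities. Groups and replicate numbers came from the sample titles, and all 12 columns were used. FATB, LpxA, the gene lists and the tests were chosen with earlier results of these data known.

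Array medians differed by more than 5%, so intensities were quantile normalized. Each array got a floor, the 1st percentile of its normalized intensities above 0. Values at 0 or below the floor were set to it before log2 was taken. A 2-group linear model with moderated variances was fitted to 3439 probes in limma 3.58.1 (R 4.3.3), without a block. Tests were 2-sided, with Benjamini-Hochberg adjustment at 0.05. The fit was checked on simulated data with independent arrays. The simulation had no likeness between arrays and no values at 0, so it cannot show how the fit handles either. The number of arrays limits the precision.

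Deviations from the group means correlated at 0.297 to 0.545 between same-numbered arrays, or 0.158 to 0.273 when probes with any value of 0 were left out. A fit with the replicate number as a block was therefore an alternative. Arrays of different numbers were not compared, so these values cannot show that arrays are paired by number across groups. Other alternatives changed the normalization, the treatment of values at 0, the averaging of number pairs and the arrays used.

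Probes were named by the platform annotation, updated to TAIR10.1 symbols (690 of 692 single-gene probes matched). Probes with several genes (870) are given by number. Genome positions are left out, since the arrays name no build. Named are both genes, list genes with a signal of their own, and the 5 single-gene probes most like each; probes 1541, 3455 and others shared by list genes were added after their values were seen.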

Additional observations from a re-analysis of the deposited data

Results flagged for a closer look

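For FATB, staurosporine array 3 had a normalized intensity of 0.317, far above the nearest other staurosporine array at 0.112, with a gap of 0.669 of the group's range, above Dixon's 95% limit for 6 arrays. On the deposited values the gap was 0.269 of the range and on the normalized log2 scale of the fit 0.307, so the array stood apart on the linear normalized scale alone of these 3. It was the only such array among 36 groups checked for 18 named genes, and chance alone gives about 1 in 20. Water array 3 had 0.288, so the FATB difference at number 3 was near 0.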

How the results depend on the processing

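FATB stayed lower and LpxA higher after staurosporine under all alternatives run, 38 for FATB and 39 for LpxA; FATB has no value in the fit limited to probes above 0 on all arrays. FATB ranged from -2.90 to -1.31 (log2) and passed in 5 alternatives: with a floor at the 5th percentile (-1.31), without numbers 3 and 4 of both groups (-2.90), without number 3 of both groups (-2.38, chosen after seeing the data), and without staurosporine array 3 or water array 4. Without any 1 array FATB ran from -2.46 to -1.48, LpxA from 0.89 to 1.07 and the count of called probes from 615 to 748. LpxA, at 0.98, did not pass with number pairs averaged (limma adjusted p 0.127) or averaged with a replicate block (0.188). The count of called probes was 9 with number pairs averaged, 2 when averaged with the block, 191 with number pairs as a random block, 472 without numbers 1 and 2, 410 without numbers 5 and 6, and 466 without number 5 of both groups. With the replicate block on 12 arrays it was 809, and the block changed the call of neither FATB (-1.96, limma adjusted p 0.0565) nor LpxA (0.98, 0.00867). The averaged and reduced fits have fewer samples, and the causes of these shifts were not tested. The common floors of 0.005 to 0.04, the common floor without normalization, the common offset, normalization with values at 0 missing and leaving out single numbers of both groups were chosen after seeing the data. Dim values near the floor, as for FATB, are the least certain.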

Other observations

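Of the genes on the lipid lists, 10 probes carry at least 1 together with other genes. On 7 of these probes all genes are on the lists, for acyl-ACP thioesterases, desaturases or dehydratases, and 2 of the 7 were at 0 on all 12 arrays. Of the other 5, 2 were called as lower, probe 3455 and probe 1293, and none as higher, against 11.8% of all probes called as lower and 11.1% as higher; 5 probes are too few to set against these shares. Probe 1293 carries 3 acyl-ACP desaturase genes and averaged 0.312 ± 0.0348 after staurosporine and 0.485 ± 0.0786 after water (SD, n = 3 number pairs each). Its log2 change was -0.62 ± 0.15 (limma adjusted p 0.0110, 0.115 without further normalization and 0.243 with number pairs averaged), and it was lower in 6 of 6 pairs. AT5G16230, which is 1 of these 3 genes, had a log2 change of 0.74 on its own probe. The other 2 genes share probe 686, with a log2 change of 0.46 ± 0.22 (limma adjusted p 0.157). Probes that hold some of the same genes thus had opposite signs, and why was not tested. Probe 3526, with 2 genes of hydroxyacyl-ACP dehydratases, had a log2 change of 0.52 ± 0.29 and was higher in 6 of 6 pairs (limma adjusted p 0.234). The 3 probes that also carry genes on no list, 1019, 3206 and 3900, were not called, and probe 3900 was at 0 on 11 arrays.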
